A study of Mus musculus with 8 samples.

Results

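Ribosome footprints were set against transcripts, gene by gene, in the inguinal white adipose tissue (iWAT) of cold-exposed mice. For each gene the mean of 4 Ribo-seq libraries was divided by the mean of 4 RNA-seq libraries, as log2((Ribo RPKM + 0.5)/(RNA RPKM + 0.5)), where RPKM is the number of reads scaled by gene length and by the depth of the library. A gene entered when its mean reached 0.5 RPKM in each assay, and 11792 of the 17264 genes in the tables did. Of the others, 3467 were below the minimum in both assays, 772 in RNA-seq only and 643 in Ribo-seq only, and 590 had no row in the RNA-seq tables.

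The mice were male C57BL/6 animals of 9 weeks kept at 4 °C for 7 days. Control mice (Y1CTL) carried Ythdf1 flox/flox alleles, and Y1cKO mice carried the same alleles with Adipoq-Cre, a transgene whose promoter drives recombination in adipocytes. Ythdf1 encodes a reader of N6-methyladenosine (m6A) in mRNA. Each genotype gave 2 libraries per assay, 8 in all, and one tissue lysate was divided between the assays. The whole tissue was lysed, so the vessels, immune cells and progenitors of the pad, in which this Cre does not act, were measured too. Whether the replicates were separate mice is not given, so the p-values describe variation from library to library, and that variation could be technical only. Values of 4 libraries are given below in the order Y1CTL replicates 1 and 2, then Y1cKO replicates 1 and 2.

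The RNA-seq libraries held 3958284 to 16429015 reads on genes and the Ribo-seq libraries 7364523 to 11862838. Ythdf1 transcripts measured 8.01, 11.5, 7.17 and 7.98 RPKM and its footprints 17.3, 15.99, 12.7 and 15.7 RPKM, so that in each assay both Y1CTL values lay slightly above both Y1cKO values, a difference not tested here. The tables give 1 value per gene, so the floxed exon could not be looked at by itself. Bmp8b, a secreted thermogenic signal that the study followed, stayed below the RNA-seq minimum, at 0.172, 0.685, 0 and 0.207 RPKM. RNA-seq libraries stood apart by marker genes of other tissues. Y1CTL replicate 2 held lymphocyte transcripts and Y1cKO replicate 1 held skeletal muscle transcripts that the other RNA-seq libraries nearly lacked (values are given with the cell types below). Without both of them, 2781 genes were called high and 2364 low, close to the 2925 and 2347 found with all libraries.

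A ribosome shields a short stretch of the mRNA it is translating from nuclease, and sequencing those protected pieces counts ribosomes on coding sequence. Divided by transcript level, footprints give a measure that is often read as translational efficiency, which is set by how often ribosomes begin on an mRNA and how fast they travel along it. In beige fat of cold-exposed mice, adipocytes build mitochondria and burn lipid for heat.

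Across the 11792 genes the ratio spread widely. Its median was 0.91 on the log2 scale, so the median gene had 1.88 times as many footprint RPKM as transcript RPKM, and the middle 50% of genes lay between 0.025 and 1.80. The genes at the 5th and 95th percentiles were 21.1-fold apart. Because RPKM is relative within each assay, the median itself carries no meaning of its own, and each gene is described below relative to it. A "relative ratio" is the gene's log2 ratio minus 0.91. A "centred difference" is the mean log2 footprint value minus the mean log2 transcript value, from limma. It was taken after every library was set to the same median, and is given with its standard error (SE). The relative ratio averages libraries before the log and the centred difference after it, so the measures part where libraries disagree. For the gene Xkrx they were -5.35 and -4.61. Lists are described by the median relative ratio, and calls and most single genes by the centred difference. A gene was called high or low at an adjusted p under 0.05 (Benjamini-Hochberg over all 11792 genes) and a centred difference beyond 1. By this rule 2925 genes (24.8%) were high and 2347 (19.9%) low, against 5692 high and 828 low when libraries were not centred. In 4163 genes (35.3%) all 4 centred footprint values lay above all 4 transcript values, in 3639 (30.9%) all lay below, and in 3990 the assays overlapped. Those shares are the background for the counts of gene classes that follow.

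**Figure D1:**
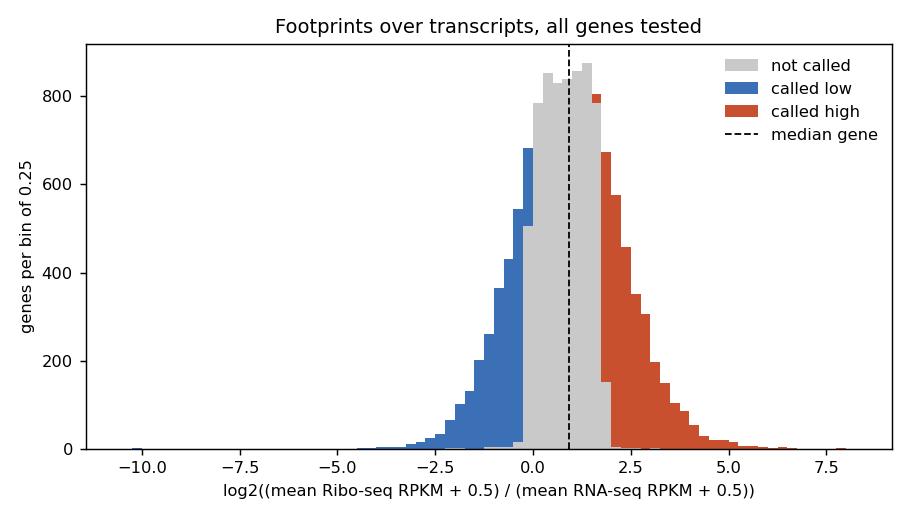
Distribution of the log2 ratio of footprints to transcripts over 11792 genes (horizontal axis, log2 ratio; vertical axis, number of genes). The median lies at 0.91, with 2925 genes called high and 2347 called low on either side.

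The order of genes was similar in the 4 pairs of libraries that share a genotype and replicate number. The pairs were matched by label only, to describe spread, and were not used in the main test. Spearman's rho between the pairs' ratios, across genes that are not independent of each other, ran from 0.91 to 0.93 among Y1CTL pair 1 and both Y1cKO pairs. It was 0.78 to 0.81 for Y1CTL pair 2, which holds the RNA-seq library with lymphocyte transcripts. At the minimum level, P2ry12 with 0.4996 RPKM in RNA-seq fell just outside with a log2 ratio of 3.90, and Macroh2a2 with 0.501 RPKM fell just inside at 1.16. In Ribo-seq, Pik3r3 with 0.498 RPKM fell just outside at -1.75 and Podxl2 with 0.501 RPKM just inside at -0.35.

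Short coding sequences had a higher ratio of footprint RPKM to transcript RPKM than long ones. Footprint RPKM is already divided by coding length, so this is a density along the coding sequence, not a number of footprints per transcript. Across all genes the ratio fell with coding length (Spearman's rho = -0.551, between -0.559 and -0.502 in the 4 pairs; a description across genes with no test). When genes were ordered by coding length and divided into deciles, the median relative ratio stepped down at every decile, from 1.33 in the shortest (111 to 534 bases) to -1.39 in the longest (3441 to 26397 bases). In the shortest decile 747 of 1180 genes (63.3%) were high and 67 (5.68%) low, and in the longest 27 (2.29%) were high and 725 (61.4%) low. Below 300 bases of coding sequence the 226 genes had a median of 1.79, with 167 high and 11 low. The 51 genes with at least 10000 coding bases had a median of -2.53, with none high and 44 low. Dst, which encodes the giant cytoskeletal linker dystonin over 23151 coding bases, had 45.9, 30.3, 56.95 and 58.8 RPKM of transcripts and 2.44, 3.72, 2.83 and 2.73 RPKM of footprints. Its transcripts were higher than its footprints in every library, with a centred difference of -4.62 ± 0.20 (SE, adjusted p = 4.77e-07). Tmsb4x, at 150 coding bases, encodes the actin-binding peptide thymosin beta 4 and lay at the other end. Its transcripts measured 79.2, 161, 102 and 86.2 RPKM and its footprints 7322, 6750, 7306 and 8464 RPKM. No values overlapped, with a centred difference of 5.33 ± 0.24 (SE, adjusted p = 4.95e-07).

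The length by which reads are divided bears on this slope. In the deposited values RNA-seq reads were divided by the whole transcript and Ribo-seq reads by the coding sequence alone. With coding length, and likewise with transcript length, used for both assays the correlation kept its sign but weakened to -0.310 and -0.318. A second description is therefore given for gene classes, in which each gene is compared with the median of its own decile of coding length ("length-matched").

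The 5′ leader, which ribosomes scan before the start codon, showed a shallower relation. The ratio fell with leader length at rho = -0.120 (between -0.131 and -0.092 in the pairs), and the sign was negative within all 10 deciles of coding length, at -0.141 to -0.011. The fall did not begin at the shortest leaders. The first decile (0 to 38 bases) had a median relative ratio of -0.040, against 0.31 in the second (38 to 72 bases). Genes with 1 to 29 leader bases stood at 0.12 and, length-matched, at -0.087 (153 high and 109 low of 600). Genes with 30 to 99 leader bases had a median relative ratio of 0.30 and, length-matched, of 0.16 (796 high and 323 low of 2628). The decile with the longest leaders (479 to 8962 bases) had a median of -0.49, with 226 high and 370 low, and the 159 genes with at least 1000 leader bases had a median of -0.57. An exception was Sf3b5, a small splicing subunit listed with 3280 leader bases and 258 coding bases. Its transcripts measured 3.49, 2.31, 2.75 and 2.98 RPKM and its footprints 150.3, 157, 161 and 144 RPKM, a centred difference of 4.68 ± 0.15 (SE, adjusted p = 2.25e-07). That leader is part of the length that divides its RNA-seq reads, and with coding length for both assays the difference was 2.02. The 255 genes whose model had no leader at all were low, with a median of -1.05 and, length-matched, -0.56 (20 high and 121 low). That group takes in the mitochondrially encoded genes, and for nuclear genes a missing leader can be an incomplete gene model.

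The 3′ UTR, where microRNAs and other regulators bind, hardly ordered the genes. Its rho with the ratio was -0.030, and the 10 deciles of 3′ UTR length had medians between -0.11 and 0.17. With no minimum level the sign of this correlation turned, to 0.0062. With coding length for both assays rho was -0.405, and with transcript length for both it was -0.400. Apart from the added 0.5 RPKM, either change multiplies each ratio by coding length over transcript length. At equal coding length that factor is smaller where the 3′ UTR is longer. A shift toward negative rho was thus built into the change, and it is not a separate result about the 3′ UTR. Genes with at least 5000 bases of 3′ UTR had a median of 0.16 (124 high and 75 low of 409).

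**Figure D2:**
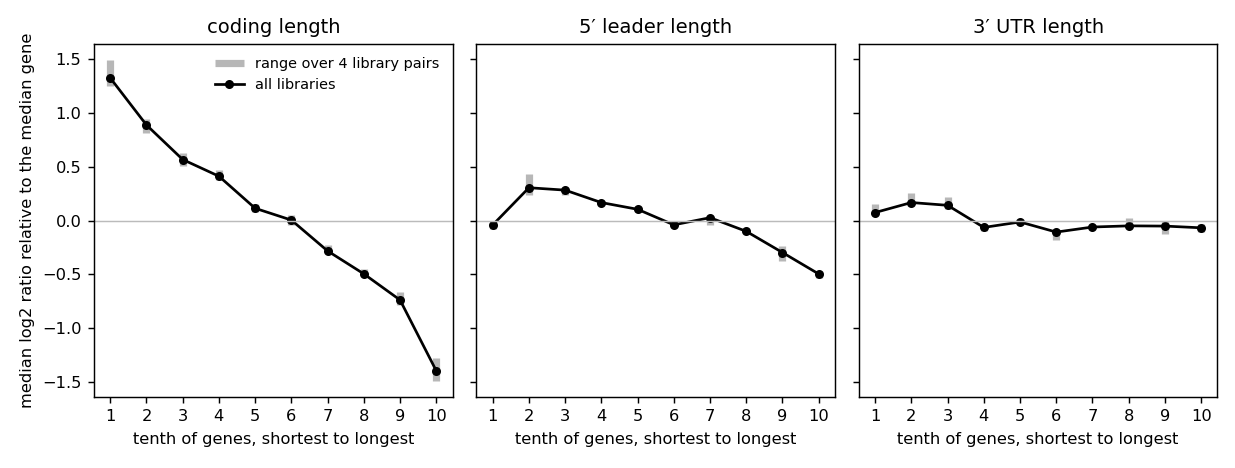
Median relative ratio (log2, vertical axis) in deciles of coding length, 5′ leader length and 3′ UTR length (horizontal axes), with lines for the range over the 4 pairs. Medians step down from 1.33 to -1.39 with coding length, end at -0.49 in the longest leaders, and stay between -0.11 and 0.17 with 3′ UTR length.

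Among 50 gene lists, those of immune cells, fibroblasts and the nuclear-encoded respiratory chain were among the highest, and those of mitochondrial DNA, the integrated stress response and the zinc fingers among the lowest. The lists of resident macrophages (median relative ratio 2.88), lymphocytes (2.55) and complement and coagulation proteins (2.11) were at the top. The lymphocyte value rested on 1 RNA-seq library, with pair medians from 0.26 to 5.35. At the bottom were skeletal muscle (-2.41, on 6 genes), the mitochondrially encoded genes (-2.15) and the stress response genes with upstream reading frames (-1.74). None of the muscle genes was called, and without RNA-seq Y1cKO replicate 1 their median turned to 0.40.

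**Figure D3:**
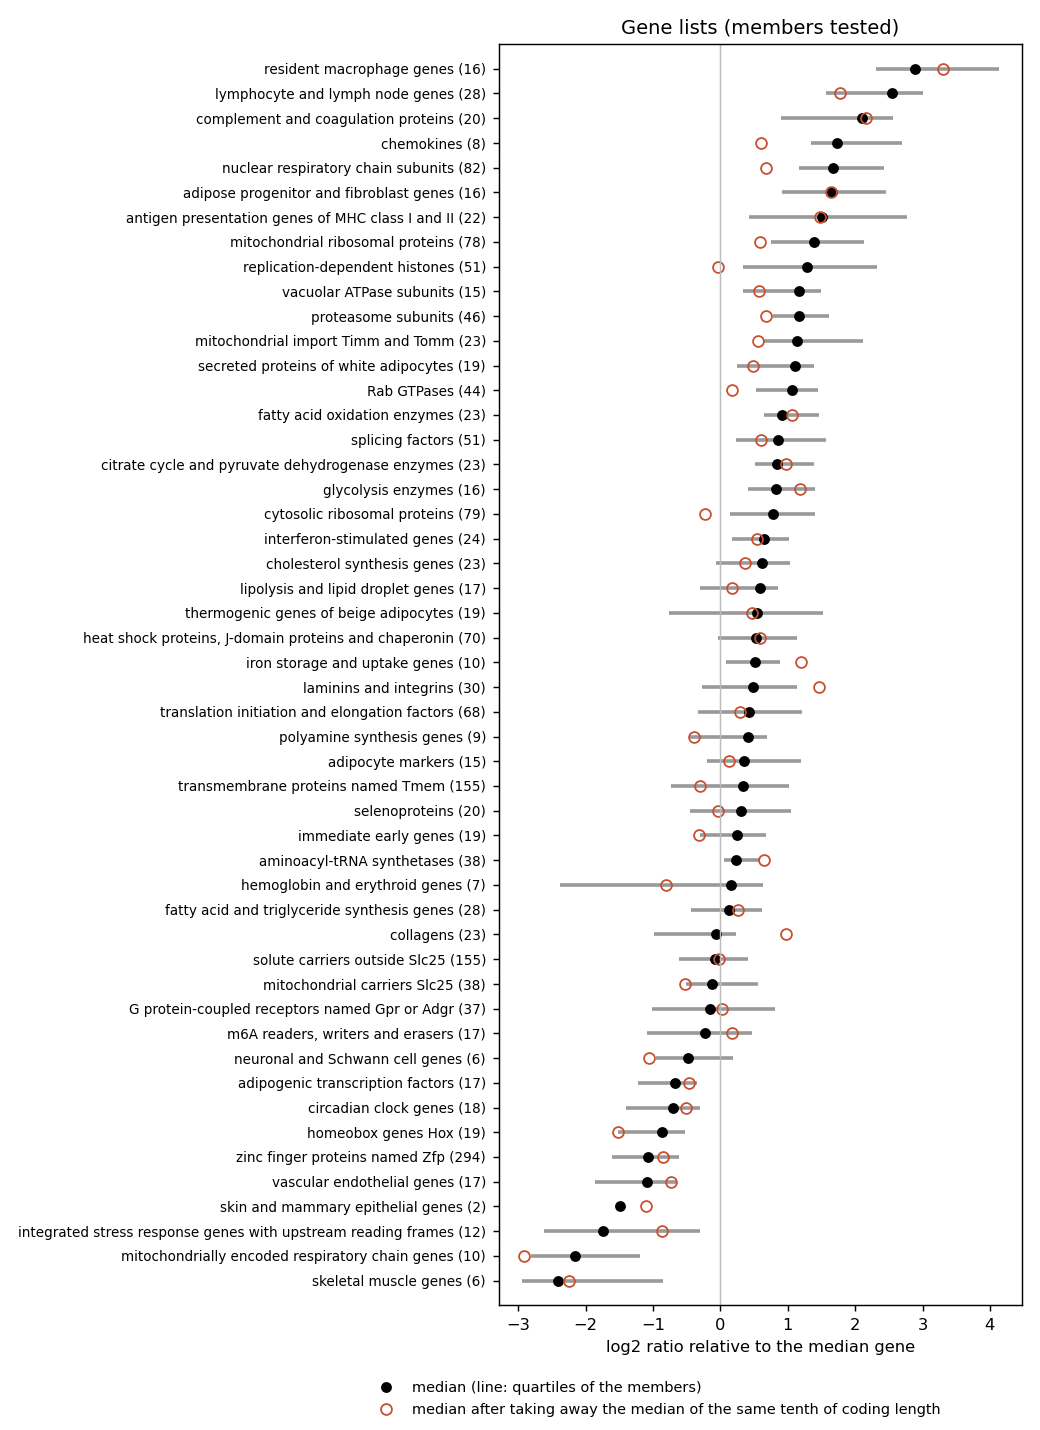
Median relative ratio of each gene list (log2, horizontal axis) with the middle 50% of its members as lines, and 0 at the median of all 11792 genes. Open circles give the length-matched medians. Macrophage genes lie at 2.88 and mitochondrially encoded genes at -2.15.

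Genes of the translation machinery were above the median gene as lists, with ribosomal proteins first before matching on coding length and last after it. Vertebrate ribosomal protein mRNAs typically begin with a C followed by a run of pyrimidines, the 5′ terminal oligopyrimidine tract, through which their translation is tied to mTOR signalling. A tract was searched on the transcribed strand as a C at the annotated start followed by at least 4 bases that are each C or T, in RefSeq windows of GRCm38.p6 matched by gene symbol, since the deposited values use the mm8 build. It was present in 823 of 32851 windows (2.51%) and in 12 of the 59 ribosomal protein genes that matched (20.3%). A tract that begins a few bases from the annotated start was not counted. The first 30 transcribed bases of 6 of the 12 are printed, chosen after their values were seen to show that a clear tract stood at both ends of the ratio, with the tract in capitals.
Rps15a: CTTCCCTCgccggtgagtgagtgtttgtga
Rpl38: CTTTCCCCgttctcttcggttctcatcgct
Rpl15: CTTCCTTTCCTCTggcggcagccatcaggt
Fau: CTTCCTCTTTCTTgactccatcttcgcggt
Rps18: CTCTCTTCCacaggaggcctacacgccgcc
Rpl35: CTCTTTCTCTCgaaccaggctgcttcagcc

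In that order their relative ratios were 4.70, 2.34, 2.24, 0.57, -2.0 and -4.59, with the first 3 called high, Fau not called and the last pair low. Rps15a lies at chr7:118116118-118116147 (minus strand), Rpl38 at chr11:114668580-114668609 (plus), Rpl15 at chr14:18270957-18270986 (minus), Fau at chr19:6057947-6057976 (plus), Rps18 at chr17:33955636-33955665 (minus) and Rpl35 at chr2:39005102-39005131 (minus). The 12 genes with a tract at the annotated start had a median relative ratio of 1.01, against 0.90 for the 47 in which none was found there. Some of the 47 may carry a tract that begins elsewhere. These medians therefore cannot decide whether the tract goes with the ratio. Over all 9369 matched genes, the 268 with a tract stood at 0.0997, and at -0.042 length-matched.

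Cytosolic ribosomal proteins had a median relative ratio of 0.79, with 35 high and 6 low of 79 tested against a background of 24.8% high and 19.9% low. Their coding sequences are short, and length-matched the median was -0.23. Rps15a had 6.20, 13.1, 8.19 and 7.45 RPKM of transcripts and 459.7, 377, 492 and 465 RPKM of footprints, so each footprint value was far above each transcript value, with a centred difference of 4.82 ± 0.22 (SE, adjusted p = 5.06e-07). Its model carries 4731 bases of 3′ UTR over 390 coding bases, and with coding length for both assays the difference was 2.17. Rpl39, at 51.2, 91.2, 70.4 and 61.9 RPKM of transcripts and 988, 913, 1200 and 1220 RPKM of footprints, was high as well, by 3.15 ± 0.19 (SE, adjusted p = 1.96e-06). Rpl35 went the other way. Its transcripts stood at 23.8, 39.2, 37.05 and 27.8 RPKM and its footprints at 2.28, 1.47, 2.28 and 2.10 RPKM, and all footprint values were below all transcript values (centred difference -4.50 ± 0.19 SE, adjusted p = 4.65e-07). Rpl29 (-2.54) and Rps18 (-1.93) were the next lowest, both called low. Ribosomal protein genes have many processed pseudogenes that can share short footprint reads, and how such reads were counted is not given in the sources used here, so the values of single ribosomal protein genes are uncertain.

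Initiation and elongation factors stood at 0.43 and, length-matched, at 0.30 (24 high and 6 low of 68). Eif1ax, which helps ribosomes find the start codon, was high by 3.73 ± 0.11 (SE, adjusted p = 2.25e-07), and Eif4e, the cap-binding protein, by 2.59 ± 0.11 (SE, adjusted p = 4.40e-07). With coding length for both assays Eif1ax stayed high at 1.23 and Eif4e lost its call at 0.74. The abundant factors Eef1a1, Eef2 and Pabpc1 were near the median gene or below it. Eef1a1, which brings tRNA to the ribosome and also has processed pseudogenes, had 1209, 1333, 1259 and 1069 RPKM of transcripts and 1963, 1512, 1808 and 1708 RPKM of footprints (centred difference -0.31 ± 0.18 SE, adjusted p = 0.147). Eef2, the translocase, stood at -0.53 ± 0.19 (SE, adjusted p = 0.0293) and was not called, and Pabpc1, the poly(A)-binding protein, was low at -1.68 ± 0.16 (SE, adjusted p = 1.77e-05). With coding length for both assays Eef1a1 and Eef2 turned to 0.32 and 0.21, neither called, and Pabpc1 stayed low at -1.23. Aminoacyl-tRNA synthetases, which charge tRNAs, were at 0.23 and, length-matched, at 0.64 (3 high and 2 low of 38). Among them Lars2, the mitochondrial leucyl-tRNA synthetase, had the lowest ratio of all 11792 genes. Its RNA-seq values were 22813, 34138, 9159 and 10127 RPKM and its footprints 17.8, 15.9, 17.3 and 17.5 RPKM. The RNA-seq value of Lars2 is uncertain, because this gene is known to contain sequence that resembles mitochondrial 16S rRNA.

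Nuclear and mitochondrial genomes both encode the respiratory chain, and the classes lay at opposite ends. The nuclear-encoded subunits had 3.20 times the ratio of the median gene (relative 1.68, 1.05 to 2.36 in the 4 pairs), with 68 high and 0 low of 82 tested. Their members' median level was 108, 134, 98.6 and 130.1 RPKM in RNA-seq and 834, 641, 857 and 769.6 RPKM in Ribo-seq. Length-matched they were still above the median, at 0.67. Ndufb2, an accessory subunit of complex I, had 4.16, 3.83, 4.05 and 5.47 RPKM of transcripts and 488, 373, 554 and 452 RPKM of footprints, with no overlap (centred difference 5.75 ± 0.16 SE, adjusted p = 2.25e-07). Its model has 4015 bases of 3′ UTR, and with coding length for both assays the difference was 3.11. Atp5e, the epsilon subunit of ATP synthase with only 156 bases of 3′ UTR, had 67.2, 77.5, 100.4 and 113 RPKM of transcripts and 3102, 2482, 3321 and 3420 RPKM of footprints (centred difference 4.28 ± 0.15 SE, adjusted p = 2.50e-07). Atp5md, another small ATP synthase subunit, was high by 5.65 ± 0.28 (SE, adjusted p = 7.30e-07), and by 2.73 with coding length for both assays. At the low end of the list, Ndufa12 (-0.022) was within the spread of the libraries.

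The mitochondrially encoded genes had a ratio 4.45 times lower than the median gene (-2.15), with 0 high and 7 low of 10 tested. mt-Nd1, a core subunit of complex I, had 16091, 21072, 12813 and 17556 RPKM of transcripts and 1927, 1967, 2613 and 1872 RPKM of footprints. The transcript values were all several times the footprint values, with a centred difference of -3.83 ± 0.30 (SE, adjusted p = 6.69e-06). mt-Co1, the catalytic subunit of cytochrome oxidase, had 44054, 40812, 29169 and 34564 RPKM of transcripts and 13904, 11602, 19558 and 14287 RPKM of footprints and was low at -2.17 ± 0.43 (SE, adjusted p = 0.00182), although with no minimum level its adjusted p was 0.0655. mt-Co2 was not called (centred difference -1.06 ± 0.47 SE, adjusted p = 0.0688), nor was mt-Atp8, the shortest of them, which had 16725, 21542, 16825 and 27381 RPKM of transcripts and 44668, 23632, 51212 and 47118 RPKM of footprints (centred difference 0.15 ± 0.48 SE, adjusted p = 0.784). Both calls depended on the settings. mt-Co2 was low with a minimum of 5 RPKM (-1.33, adjusted p = 0.0117) and without RNA-seq Y1cKO replicate 1 (-1.34, adjusted p = 0.0224), and with coding length for both assays it stood at -0.053 and mt-Atp8 was high by 1.14 (adjusted p = 0.0349). These mRNAs are translated by mitochondrial ribosomes, and how well the footprinting recovers those ribosomes was not tested.

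The ribosome and the import machinery of mitochondria were high as classes, and the inner membrane carriers were not. Mitochondrial ribosomal proteins had 2.63 times the ratio of the median gene (relative 1.39, 50 high and 0 low of 78), and length-matched they stood at 0.58. Mrps14, of the small subunit, was high by 4.31 ± 0.11 (SE, adjusted p = 1.62e-07), from 3.54, 3.02, 3.66 and 3.98 RPKM of transcripts and 141, 134, 150.3 and 144 RPKM of footprints. With coding length for both assays Mrps14 stood at 2.5. Mrpl37 and Mrpl10 were the lowest members, at -0.41 and -0.23, and were not called. The import translocases of the Timm and Tomm families stood at 1.14 (14 high and 0 low of 23), led by Tomm7, a small subunit of the outer membrane pore, at 3.88 ± 0.18 (SE, adjusted p = 5.22e-07). Length-matched the list stood at 0.56, and with coding length for both assays Tomm7 stood at 2.14. The Slc25 carriers of the inner membrane were split, with 7 high and 6 low of 38 and a median of -0.12, or -0.52 length-matched. Slc25a20, which carries acylcarnitines in for oxidation, was high by 2.07 ± 0.39 (SE, adjusted p = 0.00125), but its call was lost in the Y1CTL libraries alone. Slc25a23, a calcium-regulated ATP-Mg carrier, was low. Its transcripts stood at 53.95, 40.5, 61.7 and 60.9 RPKM and its footprints at 7.10, 6.88, 10.96 and 7.74 RPKM (centred difference -3.50 ± 0.16 SE, adjusted p = 5.06e-07).

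Genes of protein turnover and folding also tended to be high. Proteasome subunits had a median of 1.16 and, length-matched, of 0.68, with 28 high and 1 low of 46. Psmb3, a subunit of the proteolytic core, had 40.9, 33.9, 49.3 and 46.6 RPKM of transcripts and 494, 433, 486 and 493 RPKM of footprints (centred difference 2.64 ± 0.12 SE, adjusted p = 5.06e-07). Psme4, a long activator protein, was the only low member at -1.28, and it was not called with the same length for both assays or without centring. Heat shock proteins, J-domain proteins and chaperonin subunits stood at 0.53 and, length-matched, at 0.59 (22 high and 6 low of 70). Hspa5, the chaperone BiP of the endoplasmic reticulum, had 44.9, 35.5, 54.8 and 53.8 RPKM of transcripts and 485, 443, 389 and 467 RPKM of footprints, all footprint values above all transcript values (centred difference 2.41 ± 0.14 SE, adjusted p = 1.67e-06). Splicing factors stood at 0.85 and, length-matched, at 0.60 (25 high and 3 low of 51), with Snrpg, a small core protein, near the top (centred difference 4.06 ± 0.26 SE, adjusted p = 2.21e-06). The lowest member was Snrpn, also a core protein, which shares its transcript with Snurf. Its transcripts stood at 7.42, 5.92, 9.66 and 8.65 RPKM and its footprints at 3.40, 3.21, 6.43 and 3.84 RPKM (centred difference -1.69 ± 0.19 SE, adjusted p = 5.09e-05). Srsf4 (centred difference -1.13 ± 0.11 SE, adjusted p = 3.18e-05) and Hnrnpul1 (centred difference -1.21 ± 0.099 SE, adjusted p = 8.54e-06) were low too, but not with the same length for both assays. Among membrane traffic genes, Rab GTPases stood at 1.07 (25 high and 0 low of 44), and their length-matched median was 0.18. The vacuolar ATPase, which acidifies lysosomes, stood at 1.17 and, length-matched, at 0.57 (9 high and 0 low of 15).

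Zinc finger genes and other transcriptional regulators lay on the low side. Of 294 zinc finger genes named Zfp, 146 were low and 4 high, and their median ratio was 2.11 times lower than that of the median gene. Length-matched they stood at -0.86. Zfp236 had 10.9, 9.11, 8.34 and 8.59 RPKM of transcripts and 0.730, 1.08, 0.911 and 0.879 RPKM of footprints, a centred difference of -3.63 ± 0.17 (SE, adjusted p = 5.22e-07). Zfp706, a very short family member, was high by 3.21 ± 0.12 (SE, adjusted p = 3.13e-07), a direction that turned with coding length for both assays (-0.010) and with transcript length for both (-0.030). Hox genes, which set positional identity, stood at -0.87 and, length-matched, at -1.51 (1 high and 7 low of 19), with Hoxa5 at -2.30 ± 0.27 (SE, adjusted p = 7.86e-05) and Hoxc9 the high one at 1.03. The call of Hoxc9 was lost without RNA-seq Y1CTL replicate 2 (0.90) and without Ribo-seq Y1CTL replicate 2 (0.89), each in turn. Circadian clock genes had none high and 7 low of 18 tested. Per3, a repressor of the clock, was low at -2.0 ± 0.20 (SE, adjusted p = 2.58e-05), and Npas2, an activator, at -1.80 ± 0.17 (SE, adjusted p = 1.82e-05).

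The transcription factors of the adipocyte lineage were on the low side too (1 high and 5 low of 17). Zfp423, a determination factor of preadipocytes, had 12.5, 11, 19.9 and 17.3 RPKM of transcripts and 2.0, 2.77, 2.69 and 3.23 RPKM of footprints, without overlap (centred difference -3.11 ± 0.14 SE, adjusted p = 4.95e-07). Prdm16, a regulator of beige fate, was low at -1.53, and this call was lost without centring. Pparg, the central regulator of adipogenesis, was near the median gene at 0.064 ± 0.13 (SE, adjusted p = 0.673). Cebpd, an early adipogenic factor, was high, with 0.607, 0.968, 2.84 and 2.83 RPKM of transcripts and 13.5, 20.4, 20.4 and 13.4 RPKM of footprints (centred difference 2.22 ± 0.29 SE, adjusted p = 0.000141). Among m6A genes, 2 high and 5 low of 17 were called (11.8% and 29.4%, against 24.8% and 19.9% of all genes). Their median was -0.22 and, length-matched, 0.17, so this list as a whole lay near the median gene. With coding length for both assays its median was -0.045. Rbm15 and Rbm15b, which guide the m6A writer, were low at -1.79 and -1.75. Ythdf2, a reader that promotes mRNA decay, was high at 1.14, but it was not called with a minimum of 5 RPKM or with the same length for both assays. Ythdf1 was near the median gene (centred difference -0.024 ± 0.14 SE, adjusted p = 0.888).

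Replication-dependent histones had a median of 1.29 with 34 high and 4 low of 51, and stood at -0.036 length-matched. Their mRNAs end in a stem-loop in place of a poly(A) tail, and the RNA-seq was made from polyadenylated RNA, whose part in their ratio was not tested. Histone genes are also near-identical copies, so single values are uncertain. H2ac8 had 1.08, 0, 0.465 and 0.519 RPKM of transcripts and 28.3, 34.8, 25.3 and 37.5 RPKM of footprints (centred difference 4.24 ± 0.33 SE, adjusted p = 6.66e-06), and H3c11 was low at -2.67 ± 0.27 (SE, adjusted p = 3.15e-05).

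Some mRNAs are known for control at the level of translation, and several of them lay at the extremes. Upstream open reading frames hold ribosomes back from the main coding sequence of Atf4 and similar stress response mRNAs until the integrated stress response is switched on. The 12 tested genes of this kind had a ratio 3.33 times lower than the median gene, with 1 high and 8 low, and the median was nearly the same in each pair (-1.87 to -1.70). Length-matched it was -0.86. Atf4, the transcription factor at the centre of the response, had 44.96, 39.6, 43.5 and 44.7 RPKM of transcripts and 21.8, 18.8, 19.3 and 24.1 RPKM of footprints. Every transcript value was above every footprint value, with a centred difference of -1.86 ± 0.12 (SE, adjusted p = 2.39e-06). Ddit3, the stress-induced factor CHOP, stood at 17.03, 9.96, 16.7 and 16.2 RPKM of transcripts and 1.84, 2.42, 3.13 and 2.42 RPKM of footprints (centred difference -3.21 ± 0.20 SE, adjusted p = 1.92e-06). Slc35a4 was lowest. Its transcripts stood at 27.2, 27.01, 27.7 and 21.8 RPKM and its footprints at 2.43, 1.82, 0.974 and 1.14 RPKM, behind a leader of 1099 bases, and the assays were far apart in every library (centred difference -4.54 ± 0.15 SE, adjusted p = 2.49e-07). Atf5, a relative of Atf4, was low at -2.89. Of the 12, Uchl5, a deubiquitinase of the proteasome, was high by 1.37 ± 0.18 (SE, adjusted p = 0.000159), and Cebpa (0.28), Cebpb (-0.012) and Ifrd1 (-0.26) were not called. The tables give 1 footprint value per gene, so footprints on upstream frames were not analysed here.

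Iron storage and uptake are regulated in opposite directions by iron regulatory proteins, which block ferritin translation through a 5′ leader element and protect the transferrin receptor mRNA through its 3′ UTR. Ftl1, the ferritin light chain, had 103, 114, 352 and 233 RPKM of transcripts and 14.9, 29.4, 23.7 and 21.6 RPKM of footprints. Transcripts were above footprints in every library, more so in Y1cKO, with a centred difference of -3.82 ± 0.28 (SE, adjusted p = 4.91e-06). Fth1, the heavy chain, had 575, 528, 802 and 856 RPKM of transcripts and 1193, 1310, 1525 and 1383 RPKM of footprints and was near the median gene (centred difference 0.16 ± 0.16 SE, adjusted p = 0.368), although both ferritin families have pseudogenes that may share reads. Tfrc, the transferrin receptor, was high by 2.28 ± 0.48 (SE, adjusted p = 0.00235), from 14.8, 33.5, 8.27 and 16.5 RPKM of transcripts and 206, 71.4, 206 and 139.5 RPKM of footprints. In Y1CTL replicate 2 its transcripts were highest and its footprints lowest, and its call was lost in the Y1CTL libraries alone. Of the iron genes, 2 high and 1 low of 10 tested were called. Among polyamine genes, Odc1, the rate-limiting synthase, stood at -0.74 ± 0.11 (SE, adjusted p = 0.000422) and was not called, although with a minimum of 5 RPKM it was low at -1.01, and Oaz1, its antizyme made by ribosomal frameshifting, was also not called (-0.37). Selenoproteins, which read a UGA codon as selenocysteine, had 8 high and 0 low of 20, with Selenok high by 2.53 ± 0.11 (SE, adjusted p = 4.95e-07) and Selenop, the secreted carrier of selenium, at -0.72 and not called. With coding length for both assays Selenok stood at 1.02, and with transcript length for both it lost its call at 0.97. The selenoprotein list had a median of 0.31 and, length-matched, of -0.039.

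Genes of the adipocyte's own metabolism were mostly above the median gene or near it. Adipoq, the adipocyte hormone adiponectin whose promoter drives the Cre, had 655, 264, 908 and 846 RPKM of transcripts and 2961, 4113, 2840 and 3044 RPKM of footprints. Its transcripts were lowest and its footprints highest in Y1CTL replicate 2, and the assays did not overlap (centred difference 1.57 ± 0.35 SE, adjusted p = 0.00339). Secreted proteins of white adipocytes stood at 1.10 and, length-matched, at 0.48 (11 high and 0 low of 19). Lpl, lipoprotein lipase, was high by 1.85 ± 0.28 (SE, adjusted p = 0.000352), and Retn, the hormone resistin, by 2.77 ± 0.28 (SE, adjusted p = 3.01e-05). Lep, the satiety hormone leptin, stood at 0.95 and was not called. It was called high with no minimum level and when each of 4 single libraries was left out in turn, at 1.05 to 1.11 in all, and it turned to -0.73 (adjusted p = 0.0588) with coding length for both assays. Fabp4, an abundant fatty acid carrier, had 7181, 4944, 7543 and 8670 RPKM of transcripts and 29745, 35915, 31556 and 32885 RPKM of footprints (centred difference 1.39 ± 0.35 SE, adjusted p = 0.00664), and its call was lost in the Y1CTL libraries alone (adjusted p = 0.111). Cfd, the serine protease adipsin, was high by 1.19 ± 0.38 (SE, adjusted p = 0.019), but the call was lost without RNA-seq Y1CTL replicate 2 (0.98), without Ribo-seq Y1CTL replicate 2 (0.88) and within either genotype. Scd1, the stearoyl-CoA desaturase, ranked among the highest genes of both assays, with 15895, 9233, 16349 and 14467 RPKM of transcripts and 19794, 23317, 23760 and 20754 RPKM of footprints, and lay within the spread at -0.15 ± 0.38 (SE, adjusted p = 0.724). With coding length for both assays it was low at -1.33 (adjusted p = 0.0149).

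Oxidation and carbohydrate pathways were high as lists. Fatty acid oxidation enzymes stood at 0.91 and, length-matched, at 1.06 (12 high and 0 low of 23), with Decr1, which handles unsaturated fatty acids, high by 2.31 ± 0.21 (SE, adjusted p = 1.48e-05). Citrate cycle and pyruvate dehydrogenase enzymes stood at 0.84 and, length-matched, at 0.98 (12 high and 0 low of 23), with Sdhc, a membrane anchor of succinate dehydrogenase, high by 3.18 ± 0.21 (SE, adjusted p = 2.71e-06). Glycolysis enzymes stood at 0.83 and, length-matched, at 1.18 (8 high and 1 low of 16). Its 1 low member was Gapdh, with 729, 910.3, 527 and 688 RPKM of transcripts and 255, 198, 251 and 206 RPKM of footprints, lower in footprints in every library (centred difference -2.46 ± 0.20 SE, adjusted p = 8.94e-06). Gapdh also has many pseudogenes, so its footprint value is uncertain. Fatty acid and triglyceride synthesis was split at 0.13 (6 high and 2 low of 28). Thrsp, a regulator of lipogenesis, was high by 1.57 ± 0.20 (SE, adjusted p = 0.000126), while Mlxipl, the carbohydrate response factor ChREBP, was low at -2.67 ± 0.18 (SE, adjusted p = 2.63e-06) and Acacb, which makes malonyl-CoA at mitochondria, at -1.39 ± 0.20 (SE, adjusted p = 0.000232). With the same length for both assays Acacb was not called. Fasn, the fatty acid synthase, lay at -0.14. On lipid droplets, Plin4, a coat protein, was low, with 230.0, 140.2, 359.7 and 364 RPKM of transcripts and 77.2, 133, 105 and 95.97 RPKM of footprints (centred difference -2.17 ± 0.26 SE, adjusted p = 8.32e-05), and Hilpda, an inhibitor of triglyceride lipase, was high by 3.58 ± 0.29 (SE, adjusted p = 7.55e-06). Pnpla2, that lipase, was not called (-0.69).

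The thermogenic genes of beige adipocytes varied between libraries, and their list had 6 high and 3 low of 19 with pair medians from -0.79 to 1.95. Ucp1, the uncoupling protein that releases heat, had 609, 1441, 48.1 and 544 RPKM of transcripts and 3586, 955, 3164 and 2481 RPKM of footprints. In Y1CTL replicate 2 its transcripts exceeded its footprints and in the other pairs the footprints were higher, so the assays overlapped (centred difference 1.71 ± 0.93 SE, adjusted p = 0.127). Without the RNA-seq library of Y1CTL replicate 2 Ucp1 was high by 2.29 (adjusted p = 0.0466), and without the Ribo-seq library of that replicate by 2.43 (adjusted p = 0.0376). Cidea, a lipid droplet protein of thermogenic fat, had 415, 481, 88.6 and 285 RPKM of transcripts and 2457, 741, 1857 and 1632 RPKM of footprints. It was called high (centred difference 1.69 ± 0.57 SE, adjusted p = 0.0243), but after centring its values overlapped, and the call was lost without Ribo-seq Y1CTL replicate 1, Y1cKO replicate 1 or Y1cKO replicate 2, each in turn, and in the Y1CTL libraries alone (0.68, adjusted p = 0.389). Cox7a1, a respiratory chain subunit of brown fat, did not overlap and was high by 2.99 ± 0.72 (SE, adjusted p = 0.00515), though its call was lost within Y1CTL alone. Adrb3, the receptor through which noradrenaline starts the response, was low. Its transcripts stood at 103, 68.01, 153 and 147 RPKM and its footprints at 39.4, 41.9, 44.1 and 39.9 RPKM, all transcript values above all footprint values (centred difference -2.27 ± 0.19 SE, adjusted p = 8.82e-06). Kcnk3, a potassium channel of thermogenic adipocytes, was low too (centred difference -1.71 ± 0.31 SE, adjusted p = 0.00107).

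Marker genes of cells other than adipocytes gave some of the highest and lowest list medians. In whole tissue, fewer cells of a type and less RNA per cell cannot be told apart. Resident macrophage genes had 7.38 times the ratio of the median gene, and 16 of 16 tested were high. The list's median level was 2.99, 3.62, 3.68 and 2.76 RPKM in RNA-seq and 79.7, 80.2, 72.9 and 72.7 RPKM in Ribo-seq. These medians were even across libraries, but the summed RNA-seq level was not, at 90.4, 212, 147 and 105 RPKM. The sum was highest in Y1CTL replicate 2, the RNA-seq library that holds lymphocyte transcripts. Without that library the relative median was 2.64 on 14 genes. Folr2, a folate receptor of resident macrophages, had 2.94, 1.67, 2.86 and 2.22 RPKM of transcripts and 126, 203, 152 and 156 RPKM of footprints (centred difference 4.94 ± 0.19 SE, adjusted p = 3.53e-07). C1qa, a complement protein made by macrophages, had 12.4, 12.4, 21.8 and 14.2 RPKM of transcripts and 505, 577, 535 and 503 RPKM of footprints, again with no overlap (centred difference 4.28 ± 0.15 SE, adjusted p = 2.50e-07). The list of complement and coagulation proteins stood at 2.11 and, length-matched, at 2.15 (14 high and 0 low of 20). The 8 tested chemokines, which attract leukocytes, had 7 high, with a median of 1.73 and, length-matched, of 0.61. With coding length for both assays the chemokine median was 0.38.

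Lymphocyte genes rested on 1 RNA-seq library. The median of the 28 genes was 0.0781, 15.5, 0.207 and 0.161 RPKM in RNA-seq, high only in Y1CTL replicate 2, and 54.4, 50.95, 53.4 and 53.8 RPKM in Ribo-seq, at similar levels in all 4 libraries. With all libraries 25 of 28 were high (relative 2.55), with pair medians from 0.26 to 5.35. Without that RNA-seq library only 3 of them reached the minimum, at a median of 4.4, because the transcripts of the others fell below 0.5 RPKM while their footprints did not. Cd3g, of the T cell receptor complex, had 0, 14.6, 0.240 and 0.0595 RPKM of transcripts and 111, 96.2, 117 and 128 RPKM of footprints (centred difference 5.58 ± 0.94 SE, adjusted p = 0.000672). Cd79a, of the B cell receptor, had 0, 63.9, 0.506 and 0.418 RPKM of transcripts and 237, 216, 277 and 293 RPKM of footprints, and the calls of both were lost in the Y1CTL libraries alone. Jchain, which links the chains of secreted antibodies, had the highest ratio of all genes. Its transcripts stood at 1.63, 4.19, 0.764 and 1.57 RPKM and its footprints at 1239, 190.2, 408 and 479 RPKM (centred difference 6.85 ± 0.56 SE, adjusted p = 8.39e-06). The lymphocyte defining markers were thus present in all Ribo-seq libraries and in 1 RNA-seq library, although each lysate is described as divided between the assays. Antigen presentation genes stood at 1.51 (13 high and 0 low of 22). Cd74, the invariant chain of MHC class II, had 109.7, 467, 124 and 92.7 RPKM of transcripts and 4472, 4682, 4230 and 4992 RPKM of footprints (centred difference 4.04 ± 0.43 SE, adjusted p = 4.15e-05). Cd74 transcripts were highest in Y1CTL replicate 2, the RNA-seq library with lymphocyte transcripts. How far lymphocytes bear on the ratios of this list was not tested. H2-D1, a class I heavy chain that resembles its neighbours, was near the median gene at 0.12.

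**Figure D4:**
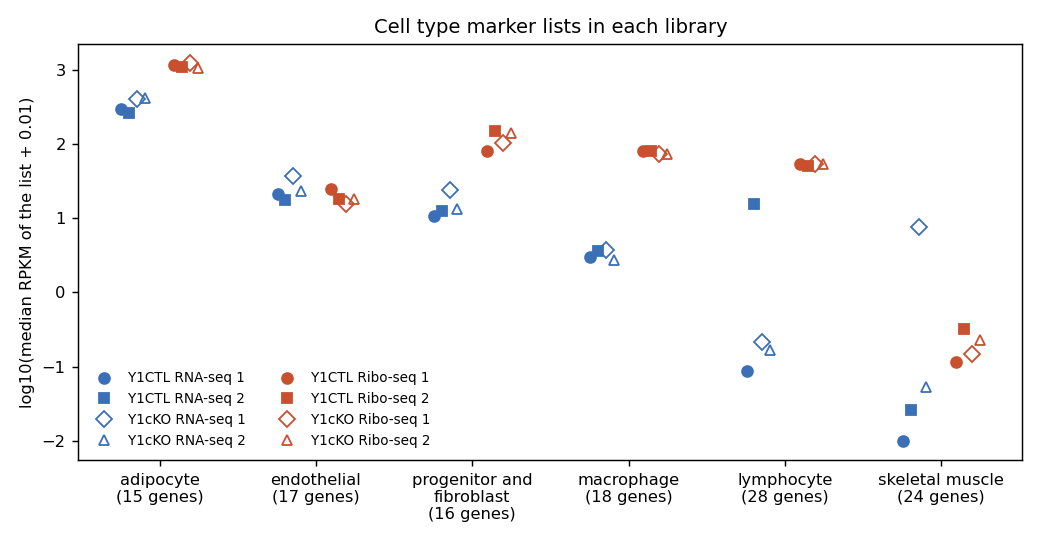
Median RPKM of 6 marker gene lists (horizontal axis) in each of the 4 RNA-seq and 4 Ribo-seq libraries, plotted as log10(median + 0.01). Lymphocyte genes stand at 15.5 RPKM in RNA-seq of Y1CTL replicate 2 against 0.0781 to 0.207 in the others, and muscle genes at 7.62 RPKM in RNA-seq of Y1cKO replicate 1.

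Skeletal muscle genes were the reverse case. Their median was 0, 0.0162, 7.62 and 0.0436 RPKM in RNA-seq and 0.104, 0.315, 0.137 and 0.219 RPKM in Ribo-seq, so that only RNA-seq Y1cKO replicate 1 held them clearly. Of 24 genes 6 were tested and none was called, and without that library the median relative ratio of the 4 that passed turned from -2.41 to 0.40. Acta1, skeletal muscle actin, had 0.349, 1.25, 61.8 and 1.01 RPKM of transcripts and 3.28, 3.36, 1.49 and 6.65 RPKM of footprints (centred difference -0.69 ± 1.09 SE, adjusted p = 0.581).

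Stromal and vascular cells differed. Progenitor and fibroblast genes stood at 1.66 (12 high and 0 low of 16), with list medians of 10.5, 12.5, 23.8 and 13.1 RPKM in RNA-seq and 80.7, 147, 103 and 139 RPKM in Ribo-seq. Pi16, a marker of early progenitors, had 5.44, 1.87, 15.5 and 6.89 RPKM of transcripts and 55.6, 193, 133 and 97.9 RPKM of footprints (centred difference 3.26 ± 0.49 SE, adjusted p = 0.000329). Collagens, the fibres of the matrix, stood at -0.064 (2 high and 2 low of 23), with pair medians of either sign (-0.90 to 0.81). Their coding sequences are long, and length-matched they stood at 0.97. Endothelial genes were low, with none high and 9 low of 17 and a ratio 2.13 times lower than the median gene. The list medians were 21.2, 17.7, 36.8 and 23.4 RPKM in RNA-seq and 24.9, 18.2, 15.3 and 17.9 RPKM in Ribo-seq. Egfl7, secreted by vessels, had 39.1, 33.4, 44.6 and 34.5 RPKM of transcripts and 15.97, 8.63, 13.5 and 14.9 RPKM of footprints (centred difference -2.34 ± 0.19 SE, adjusted p = 9.61e-06), while Cdh5, the endothelial cadherin, was not called (-0.24). Hemoglobin genes were split. Hbb-bs, an adult beta globin, had 497, 209, 595 and 410.1 RPKM of transcripts and 46.1, 34.2, 23.6 and 34.4 RPKM of footprints (centred difference -4.38 ± 0.32 SE, adjusted p = 4.56e-06), and Hba-a1, an alpha globin, had 45.9, 21.04, 112 and 70.4 RPKM of transcripts and 444, 228, 154 and 280.1 RPKM of footprints (centred difference 1.44 ± 0.47 SE, adjusted p = 0.0205). Each has a near-identical copy, so the division of reads within each pair is uncertain, and the call of Hba-a1 was lost without Ribo-seq Y1CTL replicate 1 (adjusted p = 0.0552) and in the Y1cKO libraries alone (0.49, adjusted p = 0.181).

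Beyond the lists, the extremes among called genes with at least 5 RPKM in the higher assay and no overlap included small mitochondrial and immune genes at the high end. Slirp, a mitochondrial RNA-binding protein, was high by 5.14 ± 0.11 (SE, adjusted p = 1.35e-07), and Retnla, a secreted protein of alternatively activated macrophages, by 4.92 ± 0.26 (SE, adjusted p = 9.62e-07). With coding length for both assays Slirp stood at 3.26 and Retnla at 5.41. Fcna, a ficolin lectin of macrophages, was high by 4.99 ± 0.37 (SE, adjusted p = 5.37e-06). At the low end stood Isca1, an iron-sulfur cluster assembly protein, with 36.9, 40.98, 32.6 and 36.8 RPKM of transcripts and 1.74, 0.351, 3.26 and 2.0 RPKM of footprints (centred difference -5.01 ± 0.39 SE, adjusted p = 6.21e-06). With coding length for both assays Isca1 was at -6.31. Mbd6, a methyl-CpG-binding domain protein, was low at -4.78 ± 0.20 (SE, adjusted p = 4.16e-07), Fkbp2, a chaperone of the endoplasmic reticulum listed with no leader, at -5.03 ± 0.32 (SE, adjusted p = 2.12e-06), and Usf3, a transcription factor with 6663 coding bases, at -4.41 ± 0.15 (SE, adjusted p = 2.49e-07). Mean footprints of Mbd6, Fkbp2 and Usf3 were only 0.598, 0.542 and 0.506 RPKM. Those lie just above the minimum of 0.5 RPKM, and the added 0.5 RPKM bears on the size of their differences. Xkrx had 35.8, 74.3, 7.69 and 5.90 RPKM of transcripts, higher in both Y1CTL than in both Y1cKO libraries, and 1.38, 0.504, 0.937 and 0.986 RPKM of footprints (centred difference -4.61 ± 0.59 SE, adjusted p = 0.000126).

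**Figure D5:**
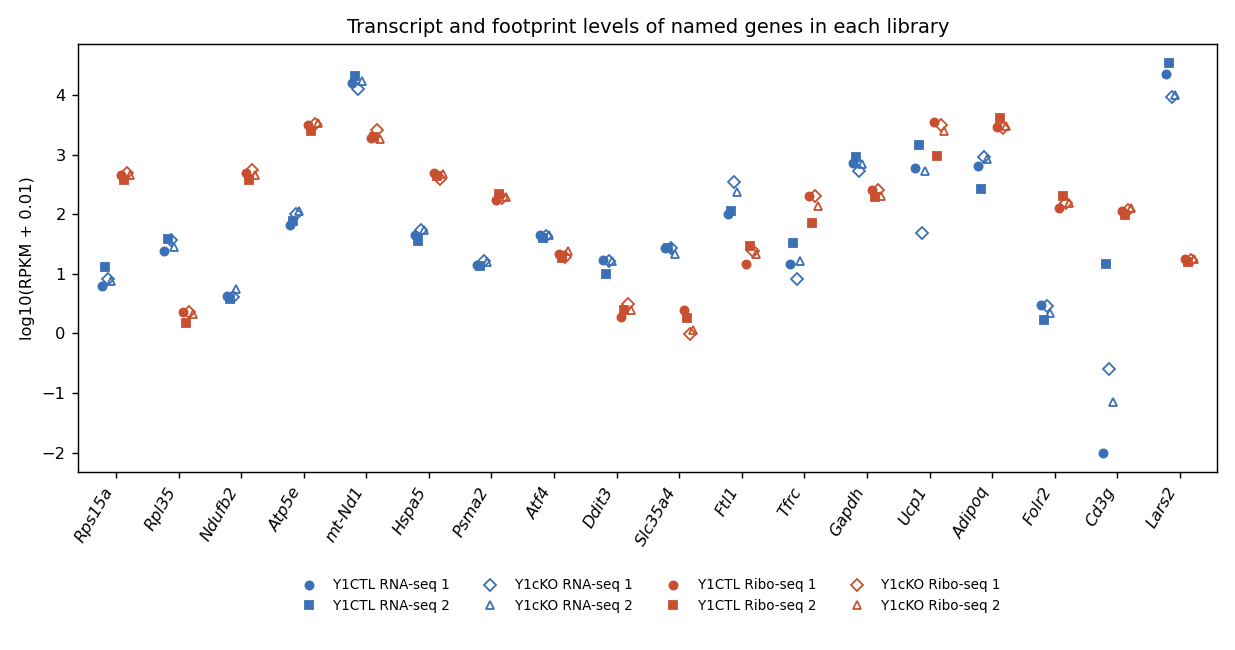
log10(RPKM + 0.01) of named genes (horizontal axis) in each RNA-seq and Ribo-seq library, 1 point per library. Ndufb2 and Rps15a show footprints far above transcripts in every library, and Slc35a4, Rpl35 and mt-Nd1 show the opposite order.

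Calls were of similar number in each genotype. In Y1CTL libraries alone 2509 genes were high and 2079 low, and in Y1cKO alone 2924 and 2374. Before centring the median ratio was 0.99 in Y1CTL and 0.84 in Y1cKO. Nuclear respiratory chain subunits stood at 1.46 in Y1CTL and 1.98 in Y1cKO, and mitochondrially encoded genes at -2.59 and -1.91. The stress response genes with upstream frames stood at -1.74 and -1.74, and resident macrophage genes at 3.05 and 2.78. The difference between genotypes was not tested for these lists.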

How the data were processed

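RNA-seq of polyadenylated, fragmented RNA and Ribo-seq of RNase I footprints were each made from 4 lysates of iWAT. The authors trimmed adaptors, masked low-quality sequence and mapped reads with HISAT2 (version 2.2.1) to the mouse build mm8. DESeq2 is named in the submitters' processing notes without a role, and the sources used here do not state the read counter, annotation release or strandedness. The deposited values are RPKM per gene, 1 table per library, with coding start, coding end and transcript length. Every value was a whole multiple of 1 read within 0.01 read when RNA-seq was scaled by transcript length and Ribo-seq by coding length, which shows the length that the authors used.

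The tables were joined by gene identifier, and 17255 identifiers matched the reference gene table. In the Y1cKO RNA-seq tables the column names swap replicates 1 and 2 relative to the labels, which were taken as right. No pair of libraries held the same values, with Pearson's r across genes of 0.893 to 0.977 among RNA-seq libraries, 0.982 to 0.991 among Ribo-seq libraries and 0.735 to 0.795 between the assays. Group membership came from the labels. The ratio was tested with limma (version 3.58.1, R version 4.3.3) on log2(RPKM + 0.5), with every library centred to the same median, genotype and assay as terms, and a mean-variance trend. Fold changes on this scale understate the change of low genes. The test was checked on simulated data. Python 3.11.15, pandas 2.3.3 and scipy 1.17.1 were used for the rest.

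Between an RNA-seq and a Ribo-seq library of one number, deviations from the group mean correlated at -0.14 in Y1CTL and -0.24 in Y1cKO. With the numbers crossed the correlations were 0.14 and 0.24. The replicate numbers were therefore not taken as pairs in the main test. Pair values and pair ranges in the Results still match libraries by replicate number. They describe spread under that matching only, which these correlations do not favour. The members, the 50 gene lists and the tests were chosen with earlier results of these data known. Named genes are the extremes among called genes with no overlap between assays, the 3 highest and 3 lowest of each list, the most abundant genes of each assay and a short list of genes chosen by role. Alternatives were the pseudocount, the minimum level, the centring, the length, the weighting, the trend, a count model on recovered reads (voom), each genotype alone, the replicate block and leaving out each library. Depth limits low genes, since 256 members had a library at 0 RPKM in RNA-seq and 15 in Ribo-seq.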

Additional observations from a re-analysis of the deposited data

Results flagged for a closer look

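The median level of 50 gene lists was compared among the 4 libraries of each assay by the gap between the most extreme library and the nearest other, divided by the range. Chance alone flags about 1 in 20 such groups of 4, and the lists share genes' libraries, so the flags are not independent of each other. Over all lists and both assays, that rate gives about as many flags as were found. A flag by itself, above all one with a narrow gap such as that of the mitochondrial import genes, therefore carries little weight.

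In RNA-seq, Y1CTL replicate 2 lay apart for lymphocyte and lymph node genes, with a median of 15.5 RPKM against 0.0781 to 0.207 RPKM in the other libraries. The same library lay apart for the mitochondrial import genes, at 17.6 RPKM against 16.02 to 16.23 RPKM, and for skin and mammary epithelial genes, at 0.556 RPKM against 0 to 0.0627 RPKM. Y1cKO replicate 1 lay apart for skeletal muscle genes, at 7.62 RPKM against 0 to 0.0436 RPKM. In Ribo-seq, Y1cKO replicate 2 lay apart for replication-dependent histones, at 24.6 RPKM against 18.4 to 19.2 RPKM, and for immediate early genes, at 17.4 RPKM against 14.5 to 14.8 RPKM.

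Footprints were also present for genes that the RNA-seq tables do not list. Of 590 such genes 38 had a mean of at least 0.5 RPKM in Ribo-seq, from 0.501 to 50.9 RPKM. The highest was the histone gene Hist1h2ap, with 45.6, 64.1, 32.1 and 61.9 RPKM, followed by Slpi, a secreted protease inhibitor, with 41.2, 13.8, 21.7 and 23.7 RPKM. No ratio can be given for them.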

How the results depend on the processing

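The counts of 2925 high and 2347 low genes stayed within 1.5 times under each alternative apart from a minimum of 5 RPKM, which gave 1369 and 1352, and no centring, which gave 5692 and 828. The stricter minimum tests fewer genes, and without centring the median of 0.91 stays in every gene's difference. Leaving out 1 library at a time gave 2841 to 2935 high and 2311 to 2353 low genes, Y1CTL alone 2509 and 2079, and voom on recovered reads 3131 and 2469. Between lengths the called genes differed more than the counts. With coding length for both assays 3003 genes were high and 2173 low, of which 2099 and 1564 were called in the main comparison as well, and with transcript length for both 2824 were high and 1986 low, of which 2023 and 1501 were called there as well.

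The correlation of coding length with the ratio kept its sign under each alternative run, from -0.551 to -0.500 with no minimum, -0.318 with transcript length for both assays and -0.310 with coding length for both. For leader length the value of -0.120 became -0.0958 with no minimum, -0.236 with transcript length for both and -0.237 with coding length for both. For 3′ UTR length, -0.030 became -0.060 with a minimum of 5 RPKM, turned to 0.0062 with no minimum, and was -0.400 with transcript length for both and -0.405 with coding length for both. Either change of length multiplies the ratio by coding over transcript length, which by itself moves the leader and 3′ UTR correlations toward negative values. The cause of the other moves was not tested. Leaving out 1 library at a time gave -0.557 to -0.541 for coding length, -0.125 to -0.116 for leader length and -0.033 to -0.024 for 3′ UTR length.

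With the replicate number as a block 2913 genes were high and 2345 low, and with the numbers crossed, a pairing added after seeing the data, 2944 and 2346. The replicate block ended the calls of Fabp4 (adjusted p = 0.0501) and Cfd (0.0708) among genes of the text, and also of Elovl3 (0.0549), another thermogenic gene. The centred difference of Zfp706 turned to -0.030 with transcript length and -0.010 with coding length for both assays. Coding length for both assays was chosen after seeing the data. Without centring, the low calls of named genes nearest the median gene ended, among them Pabpc1, Snrpn, Trp63, Prdm16, Rbm15, Rbm15b, Per1, Npas2, Kcnk3, Dusp1 and Oas2. Over the named genes and alternatives, 3635 values kept their side of the threshold, 113 lost their call, 35 gained one and 2 called values turned direction. A further 85 values of 24 genes not called under either setting changed sign, as Eef2 did with coding length for both assays (-0.53 to 0.21) and Mrpl37 (-0.41 to 0.36). Of 132 called genes, 24 kept their call with coding length for both assays but moved by over 1.5 times. List medians depended on the length as well. With coding length for both assays those of chemokines (1.73 to 0.38), Rab GTPases (1.07 to 0.18) and Tmem genes (0.34 to 0.019) fell. Polyamine genes turned from 0.41 to -0.11, and mitochondrially encoded genes went from -2.15 to -1.21. Other list medians rose, as for aminoacyl-tRNA synthetases (0.23 to 0.79), proteasome subunits (1.16 to 1.52) and collagens (-0.064 to 0.58).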

Other observations

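Further gene classes gave ratios that no section above describes. Immediate early genes, the fast responders to stimulation, had 4 high and 1 low of 19 tested and a median relative ratio of 0.25, or -0.32 length-matched. Ier5 was high by 1.83 ± 0.29 (SE, adjusted p = 0.000458) and Junb, a subunit of AP-1, by 1.11 ± 0.21 (SE, adjusted p = 0.00133), while Dusp1, a phosphatase of stress kinases, was low, with 15.7, 20.05, 16.05 and 14.6 RPKM of transcripts and 8.80, 7.89, 9.64 and 10.5 RPKM of footprints (centred difference -1.65 ± 0.15 SE, adjusted p = 1.79e-05). The call of Junb was lost without RNA-seq Y1CTL replicate 1 (0.97) and in the Y1CTL libraries alone (0.88). Laminins and integrins, which anchor cells to matrix, stood at 0.48 and, length-matched, at 1.47 (11 high and 4 low of 30). Itgb7, a leukocyte integrin, was high by 3.03 ± 0.65 (SE, adjusted p = 0.00267), and its transcripts were highest in Y1CTL replicate 2, at 0.471, 11.2, 1.68 and 0.907 RPKM. Its call was lost in the Y1CTL libraries alone. Itgb5, an integrin of stromal cells, was low at -1.20 ± 0.19 (SE, adjusted p = 0.000519), but not with the same length for both assays. Interferon-stimulated genes stood at 0.64 (8 high and 1 low of 24), with Bst2, which tethers virions, high by 3.03 ± 0.18 (SE, adjusted p = 1.62e-06) and Oas2, a sensor of double-stranded RNA, low at -1.78 ± 0.19 (SE, adjusted p = 4.22e-05).

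Cholesterol synthesis genes stood at 0.61 and, length-matched, at 0.36 (7 high and 0 low of 23), with Fdps, which makes farnesyl pyrophosphate, high by 1.91 ± 0.19 (SE, adjusted p = 3.13e-05). Lipolysis and lipid droplet genes had 4 high and 1 low of 17, adipocyte markers 5 high and 1 low of 15 and polyamine synthesis genes 2 high and 1 low of 9. Receptors named Gpr or Adgr were split (8 high and 8 low of 37), with Adgre1, the macrophage antigen F4/80, high by 2.38 ± 0.18 (SE, adjusted p = 6.06e-06) and Gpr4, a proton sensor, low at -3.14 ± 0.24 (SE, adjusted p = 5.78e-06). Transmembrane proteins named Tmem had 44 high and 26 low of 155 and solute carriers outside Slc25 had 19 high and 17 low of 155. Slc16a1, the lactate carrier, was high by 2.26 ± 0.19 (SE, adjusted p = 9.75e-06). The hemoglobin and erythroid list had 1 high and 3 low of 7, the neuronal and Schwann cell list 1 high and 1 low of 6, and of the skin and mammary list 2 genes were tested and both, Trp63 and Krt10, were low, though Krt10 was not called with the same length for both assays, and Trp63 was not called with transcript length for both (-0.96) or in the Y1CTL libraries alone (adjusted p = 0.0519).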
